A study of Mus musculus with 23 samples.

Results

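The 8 genes described here encode the subunits Mcm2, Mcm3, Mcm4, Mcm5, Mcm6 and Mcm7 of the replicative helicase, the helicase cofactor Mcm10 and the sliding clamp Pcna. They were chosen by name, and their data are the crosslink sites that lie on the strand of the gene inside its annotated body. They are 8 of 13570 annotated genes with a called site in any of the 6 lists, and they held 793 of 451137 sites in the longest list.

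The sites come from iCLIP2 of CTCF, a method in which UV light joins protein to RNA and the start of a read marks the joined nucleotide. The material was nuclear lysate of mouse E14 embryonic stem cells (ESCs) and of neural progenitor cells (NPCs) obtained from them by 2 days of differentiation. In every group both endogenous Ctcf alleles carried a mAID-eGFP degron tag and OsTir1(F74G) was expressed from Rosa26, so that 1 µM 5-Ph-IAA removed the endogenous protein, and 1 µg/mL doxycycline induced a Flag-Halo-tagged rescue CTCF from the Tigre locus, both for 24 hours. This rescue CTCF was wild type (WT) or a mutant without part of zinc finger 1 (ΔZF1), and the groups were ESC WT, ESC ΔZF1, ESC without crosslinking (noXL), NPC ΔZF1 and NPC noXL with 4 libraries each and NPC WT with 3. UV (254 nm, 400 mJ/cm2) was given to WT and ΔZF1 cells and not to the noXL groups, which were both of the WT rescue line. Each line is a clone, and no control without UV of the ΔZF1 line was analysed here.

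The libraries of a group were merged before sites were called, which left 1 list per group and no replicate error for any value below. No test between groups was therefore possible. A range given with a share is its 95% Wilson interval, and the range of a ratio follows from such an interval, so that both hold counting error only. The intervals treat sites as independent, so these ranges are too narrow where neighbouring sites are not. List lengths were 451137 (WT), 231636 (ΔZF1) and 158968 sites (noXL) for ESCs and 239258, 158490 and 107227 sites for NPCs. Read depth is unknown from these lists. RNA abundance was not measured here, so a change in the amount of an RNA and a change in its contact with CTCF cannot be told apart. From ESC WT to NPC WT, sites on the ESC markers fell from 460 to 0 on Esrrb, 66 to 0 on Klf4, 343 to 5 on Tfcp2l1, 164 to 11 on Zfp42 and 85 to 14 on Nanog. The NPC marker Nes rose from 2 to 28 sites, whereas 4 of 5 NPC markers (Sox1, Pax6, Hes5 and Zic1) had no site in either WT list.

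Mcm2 to Mcm7 form a ring that is loaded onto origins of replication as an inactive pair of hexamers. It becomes the active helicase when Cdc45 and the GINS complex join it, a step in which Mcm10 takes part, and Pcna then encircles DNA and tethers polymerases at the fork. The genes of this machinery are known targets of E2F transcription factors and are highly expressed in rapidly dividing cells, ESCs among them.

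In the coordinates of mm10, Mcm2 lies on the minus strand of chromosome 6 (88883474 to 88898780, 16 exons). Mcm3 and Mcm6 lie on the minus strand of chromosome 1 (20802968 to 20820312 and 128331590 to 128359664, 17 exons each). Mcm4 is on the minus strand of chromosome 16 (15623897 to 15637400, 16 exons), and Mcm5 on the plus strand of chromosome 8 (75109569 to 75128439, 17 exons). Mcm7 is on the minus strand of chromosome 5 (138164583 to 138172422, 15 exons) and is the host of the miRNA genes Mir25, Mir93 and Mir106b. Mcm10 and Pcna share the minus strand of chromosome 2 (4989714 to 5012791 with 20 exons, and 132249162 to 132253314 with 6 exons). Exons of protein-coding transcripts covered between 15.6% of the gene body in Mcm6 and 47.0% in Mcm7.

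The sequences around 6 sites are those that the results below turn on, including positions that were also called without UV. Each window is 25 bases of the reference genome (GRCm38), 5′ to 3′ on the strand of the gene, written as DNA, and the capital marks the called nucleotide. The label gives the region of that nucleotide only. The window of the Mcm5 5′ UTR site begins upstream of the annotated gene, and that of the Pcna exon 3 site ends in the following intron. The first was called in all 4 UV lists and in neither noXL list, the second in all 6 lists, the next pair were the highest-scoring sites of Mcm2 and Mcm5 in ESC WT, and the last 2 are recurrent coding sites of Mcm5 and Mcm7 called in 3 UV lists.
Pcna exon 3, chr2:132251688-132251712: tgtggagcaactTggaatcccagtg
Pcna 5′ UTR, chr2:132253169-132253193: aggaagccgcggCattagacggttg
Mcm2 5′ UTR, chr6:88898670-88898694: gcgcgaaaaccgGtggcagctggtg
Mcm5 5′ UTR, chr8:75109558-75109582: gtttttcccgcgAaagtcggcttcc
Mcm5 exon 8, chr8:75117663-75117687: cctgcctgctttTtgggggttcccg
Mcm7 exon 8, chr5:138168122-138168146: agcccactggatTgtgaagatgaca
The 3 coding windows have a uridine at the called base, and the 3 windows from 5′ UTRs have cytosine, guanine and adenine.

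The mature strands of the 3 miRNAs inside Mcm7 are shown because sites fell on their ends. They are RefSeq sequences, 5′ to 3′, with the seed (bases 2 to 8) in capitals.
miR-25-3p: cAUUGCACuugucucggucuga
miR-25-5p: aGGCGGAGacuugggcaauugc
miR-93-3p: aCUGCUGAgcuagcacuucccg
miR-93-5p: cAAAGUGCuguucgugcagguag
miR-106b-3p: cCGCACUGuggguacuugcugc
miR-106b-5p: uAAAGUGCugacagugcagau
The 5p strands of miR-93 and miR-106b share the seed AAAGUGC, and the other 4 strands have seeds of their own.

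All 8 genes had sites in all 6 lists. Mcm2, a subunit of the ring, held 92 sites with WT rescue, 41 with ΔZF1 and 30 without UV in ESCs, and 52, 31 and 9 in the same groups of NPCs. Mcm3 held 80, 42 and 31 sites in ESCs and 38, 25 and 10 in NPCs. Mcm4 held 74, 26 and 21 in ESCs and 49, 24 and 13 in NPCs. In each of these 3 genes WT had the most sites and noXL the fewest within a cell type.

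Mcm5, which closes the gate of the ring together with Mcm2, had the most sites of the 8 genes in every list, with 184, 87 and 61 in ESCs and 82, 39 and 34 in NPCs. Mcm6 held 124, 45 and 48 sites in ESCs, where ΔZF1 was below noXL, and 47, 33 and 16 in NPCs. Mcm7 held 88, 50 and 26 in ESCs and 48, 26 and 11 in NPCs. The order WT, ΔZF1, noXL held in both cell types for every ring subunit except Mcm6 in ESCs.

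Mcm10, which joins the helicase at activation, held 92, 44 and 37 sites in ESCs and 33, 26 and 12 in NPCs. Pcna, the shortest of the genes, held the fewest, with 59, 19 and 15 in ESCs and 23, 14 and 4 in NPCs. Together the genes held 793, 354 and 269 sites in ESCs and 372, 218 and 109 in NPCs, again in the order WT, ΔZF1 and noXL. Set against 100000 sites in genes of the same list, these were 185, 163 and 178 sites in ESCs and 162, 142 and 107 in NPCs. The share was thus lowest in NPC noXL.

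**Figure D1:**
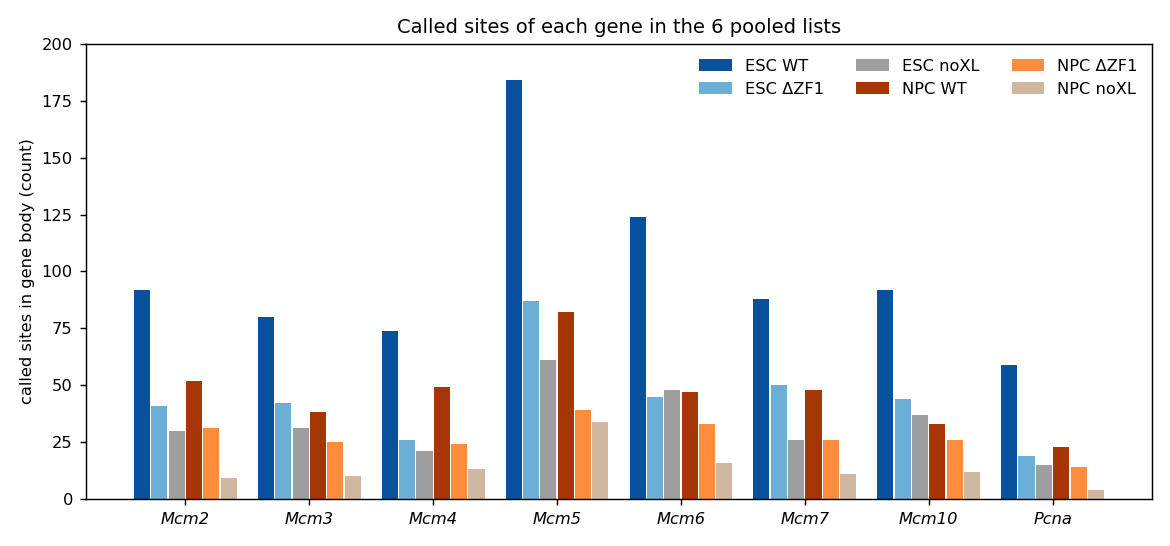
Called sites in the body of each gene (vertical axis, count) for the 6 pooled lists (colours), with 1 list per group and hence no error bars. Mcm5 reaches 184 sites in ESC WT, and ESC WT is the highest bar for each gene.

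The genes differ in length, so exons were also compared per kilobase. In ESC WT, exon density was 21.4 sites per kb in Mcm3, 19.6 in Mcm2, 19.4 in Mcm5, 18.7 in Mcm4, 17.8 in Pcna, 16.7 in Mcm6, 16.3 in Mcm7 and 10.9 in Mcm10. The 7 genes other than Mcm10 lay close together on this scale, although their counts of all sites ranged from 59 to 184. In NPC WT, exon density was between 9.14 (Mcm6) and 13.4 sites per kb (Mcm4) in those 7 genes and 5.05 in Mcm10.

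The first comparison asked what UV added to the background on these RNAs. Over all 8 genes, sites in ESC WT were 2.95 times those in ESC noXL (2.57 to 3.38), and in NPC WT 3.41 times those in NPC noXL (2.76 to 4.22). The ratio was then scaled to the sites that each list held in all genes, as a log2 value with a pseudocount of 1 per gene, which took 1.51 off the log2 value in ESCs and 1.17 in NPCs. The scaled log2 ratio of the summed genes was 0.05 (-0.15 to 0.25) in ESCs and 0.59 (0.29 to 0.90) in NPCs. Thus the 8 RNAs gained about as many sites with UV as other genes in ESCs, and more than all genes together in NPCs.

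By gene, the scaled WT over noXL ratio in ESCs ran from -0.22 for Mcm10 to 0.40 for Pcna, and 0 of 8 genes passed a log2 limit of 1 or -1. Of the 6199 genes that could be compared, those whose sites in the pair of lists added up to 20 or more, 8.13% passed the upper and 6.6% the lower limit. With sites at or above the median score Pcna was at 1.14 and Mcm4 at 1.04, and on uridine sites alone Mcm3 was at -1.02, each past a limit. In NPCs all 8 ratios were above 0, where 52.0% of 4757 genes were, although Mcm5 fell to -0.20 on uridine sites alone and Mcm10 to -0.32 on exon sites alone. Mcm2 had the highest at 1.23 (0.36 to 2.36), followed by Pcna at 1.09 (-0.12 to 2.82), Mcm7 at 0.86 (0.02 to 1.88), Mcm4 at 0.66 (-0.13 to 1.61) and Mcm3 at 0.65 (-0.23 to 1.74). Mcm6 stood at 0.32, Mcm10 at 0.21 and Mcm5 at 0.07. The intervals of Mcm2 and Mcm7 excluded 0, and those of the other 6 genes did not. Mcm2 and Pcna passed the upper limit, as did 10.4% of all genes compared, and 6.52% passed the lower. Both calls depended on the sites used, since Mcm2 was at 0.89 with sites at or above the median score and Pcna at 0.68 with exon sites alone. On uridine sites alone Mcm6 (1.83), Mcm7 (1.70) and Mcm3 (1.32) were past the limit too, as was Mcm3 (1.31) with the score minimum. The median over the 8 genes was 0.66, against 0.03 over all genes compared. The summed ratio of NPCs exceeded that of ESCs by 0.55 (0.18 to 0.91), counting error only.

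Both lists of the NPC ratio were compared with ESCs to see which of them moved. In the WT lists NPCs had 0.469 times the sites of ESCs on these genes (0.415 to 0.531), a scaled log2 ratio of -0.19 (-0.37 to -0.02). Without Mcm5 it was -0.17 (-0.37 to 0.03), an interval that included 0, and on exon sites alone it was -0.01. Mcm4 was highest at 0.31 and Mcm10 lowest at -0.55, and 0 of 8 genes were past either limit (11.5% of 6720 genes were past the upper and 10.5% past the lower). Mcm10 was past the lower limit on uridine sites alone (-1.07) and with the score minimum (-1.06). In the noXL lists the ratio was 0.405 (0.325 to 0.506) and the scaled value -0.73 (-1.06 to -0.42). All 7 genes with enough sites were below 0 (Mcm5 was at 0.04 on uridine sites alone), where 47.0% of the 3722 genes compared were above it. The median of the 7 was -0.96, against -0.05 over all genes compared. Mcm2 passed the lower limit at -1.07 (-2.22 to -0.12), as did 12.3% of genes, and 11.1% passed the upper. With sites at or above the median score Mcm2 was at -0.31 and no longer past the limit, whereas Mcm3 (-1.04) and Mcm10 (-1.37) were past it. Mcm10 (-0.98), Mcm3 (-0.98) and Mcm6 (-0.96) lay just inside it in the reported values. Mcm10 and Mcm3 were both at -1.02 with a pseudocount of 0.5, and Mcm10 was at -1.0 with scaling off chromosome 11. Pcna, which had too few sites to be compared, was at -1.11 and past the limit with a minimum of 10 sites. Mcm4 (-0.09) and Mcm5 (-0.26) were nearest 0. The NPC noXL list enters both the high WT over noXL ratio in NPCs and this low ratio, so they are not independent observations.

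**Figure D2:**
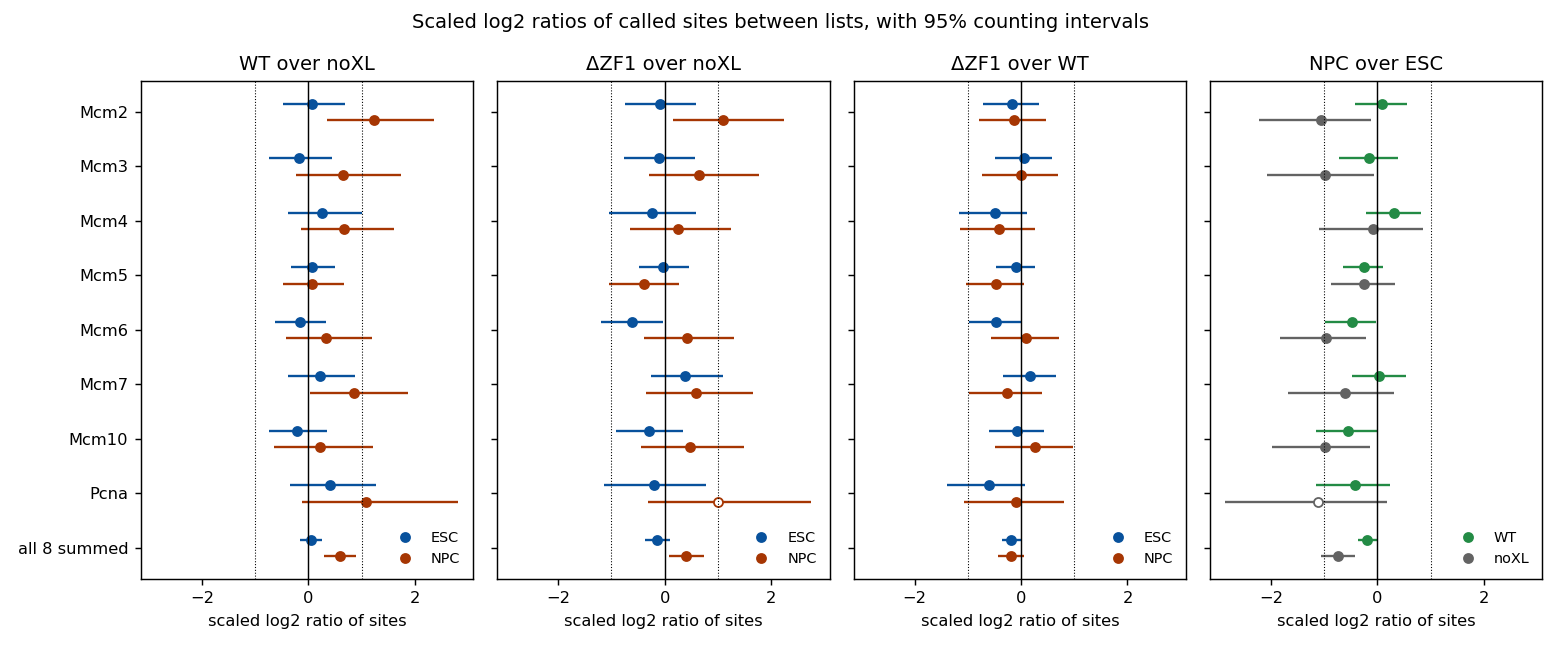
Scaled log2 ratios of called sites (horizontal axes) for each gene and for the 8 genes summed, with 95% counting intervals as lines and the limits 1 and -1 dotted. Open circles have under 20 sites in both lists together. In the left panel all NPC values lie above 0 and ESC values lie on both sides of it, and in the right panel all noXL values lie below 0 (on uridine sites alone that of Mcm5 was 0.04).

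The next comparison asked how loss of part of zinc finger 1 affected sites on these RNAs. Sites in ESC ΔZF1 were 0.446 times those in ESC WT (0.394 to 0.506), and in NPC ΔZF1 0.586 times those in NPC WT (0.496 to 0.693). The ΔZF1 lists were shorter on all genes, and the scaled log2 ratio was -0.18 (-0.37 to -0.004) in ESCs and -0.18 (-0.42 to 0.06) in NPCs. The difference between cell types was 0.00 (-0.30 to 0.30). In both cell types most of the fall thus went with the length of the ΔZF1 list. The 8 RNAs lay slightly below that length, with an interval that just excluded 0 in ESCs and included it in NPCs.

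In ESCs 0 of 8 genes passed a limit, and the values lay between -0.61 for Pcna (-1.39 to 0.08) and 0.18 for Mcm7 (-0.34 to 0.66). Mcm4 stood at -0.50, Mcm6 at -0.46, Mcm2 at -0.17, Mcm5 at -0.09, Mcm10 at -0.07 and Mcm3 at 0.07. Of 6509 genes, 6.85% passed the upper and 5.45% the lower limit. In NPCs 0 of 8 genes passed a limit either, and the range was -0.47 for Mcm5 (-1.03 to 0.06) to 0.25 for Mcm10 (-0.49 to 0.98), where 5.77% and 7.37% of 5265 genes passed the upper and the lower limit. Each interval of a single gene in both cell types included 0. With exon sites alone Mcm5 in NPCs was at -1.10, past the lower limit, and with sites at or above the median score Mcm10 was at 1.12, past the upper.

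Against noXL, the ΔZF1 list held 1.32 times as many ESC sites on the 8 genes (1.12 to 1.54) and 2.00 times as many NPC sites (1.59 to 2.52). The scaled log2 ratios were -0.14 (-0.36 to 0.09) and 0.41 (0.08 to 0.74). In ESCs 7 of 8 genes were below 0, where 53.4% of 5007 genes were above it. With sites at or above the median score Mcm2, Mcm3, Mcm4 and Mcm5 moved above 0. Mcm6 was lowest at -0.62 (-1.21 to -0.04) and Mcm7 was at 0.39. A limit was passed by 0 of 8, while 7.87% of the genes compared passed the upper and 6.57% the lower. Mcm6 was past the lower limit on exon sites alone (-1.02) and Mcm7 past the upper on uridine sites alone (1.09). In NPCs 6 of 7 genes with enough sites were above 0, where 50.5% of all genes compared were, and Mcm5 was at -0.39. Mcm2 passed the upper limit at 1.09 (0.15 to 2.24), as did 7.2% of 3695 genes, and 8.04% passed the lower. With sites at or above the median score Mcm2 was at 0.53, inside the limit, and on uridine sites alone Mcm6 (1.73) and Mcm5 (-1.04) were past a limit. The WT and ΔZF1 comparisons of a cell type share the noXL list, which came from WT cells.

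The base at each site was examined because UV at this wavelength joins protein to uridine most readily. On the 8 genes 62.8% of ESC WT sites were at a uridine (59.4 to 66.1), against 51.7% in ESC ΔZF1 (46.5 to 56.9) and 30.9% in ESC noXL (25.6 to 36.6). In NPCs the shares were 65.3% in WT (60.4 to 70.0), 57.3% in ΔZF1 (50.7 to 63.7) and 22.9% in noXL (16 to 31.7). The noXL shares were near the uridine content of the gene bodies, which was 26.6% to 30.7%. Over all sites in genes the shares were 60.6%, 49.2% and 28.3% in ESCs and 64.6%, 59.0% and 27.9% in NPCs, within the intervals of the 8 genes.

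The base before the called one was also a uridine more often in the UV lists. With WT rescue it was a uridine at 51.2% of sites in ESCs and 53.8% in NPCs, with ΔZF1 at 45.5% and 40.8%, and without UV at 26.0% and 21.1%. The base after it was a uridine in 23.4% to 32.0% of sites in all 6 lists. A further base upstream, the shares were 34.6% and 33.1% with WT and ΔZF1 and 26.8% without UV in ESCs, and 36.8%, 34.4% and 30.3% in NPCs.

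When sites were split by base, the increase with UV was mainly at uridines. ESC WT held 498 uridine sites on the 8 genes and ESC noXL 83, a ratio of 6.0 (4.76 to 7.57), close to the 6.1 of all genes. NPC WT held 243 and NPC noXL 25, a ratio of 9.72 (6.46 to 14.6), where all genes gave 5.22. At the other bases the ratios were 1.59 (1.32 to 1.90) and 1.54 (1.17 to 2.02), and over all genes 1.56 and 1.11. In NPCs the 8 genes were thus above all genes at uridines and at other bases. Relative to WT, ΔZF1 held 0.367 times as many sites at uridines (0.310 to 0.435) and 0.580 times at other bases (0.480 to 0.700) in ESCs, and 0.514 (0.415 to 0.638) and 0.721 (0.553 to 0.940) in NPCs. All genes showed the same order in both cell types, with 0.412 and 0.655 in ESCs and 0.608 and 0.771 in NPCs.

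Shares of single genes varied around the summed values, and no difference between them was tested. Mcm2 had the lowest uridine share in ESC WT, 45.7% (35.9 to 55.8), and rose to 65.4% (51.8 to 76.8) in NPC WT. Mcm10 went the other way, from 58.7% (48.5 to 68.2) to 42.4% (27.2 to 59.2). Mcm3 had 51.6% uridine in ESC noXL (34.8 to 68.0) and 10.0% in NPC noXL, the latter over only 10 sites. Mcm6 had 1 uridine among 16 NPC noXL sites and 36 among 47 NPC WT sites.

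**Figure D3:**
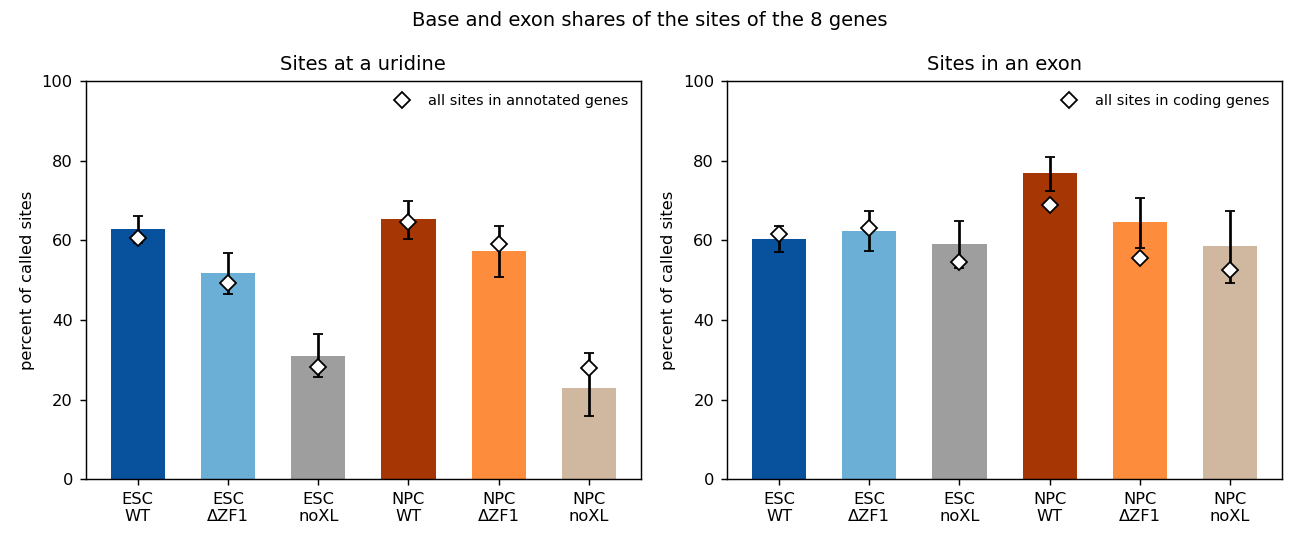
Percent of the sites of the 8 genes that fell on a uridine (left) and in an exon of a protein-coding transcript (right) in each list, with 95% Wilson intervals. Open diamonds give the share over all sites in annotated genes (left) or in protein-coding genes (right). Uridine shares of noXL (30.9% and 22.9%) lie below all UV lists, and the exon share of NPC WT (76.9%) is the highest.

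Within the genes most sites lay in exons, although introns made up most of their length. In ESCs exons of protein-coding transcripts held 60.4% of sites with WT rescue (57.0 to 63.7), 62.4% with ΔZF1 and 59.1% without UV. In NPCs they held 76.9% with WT rescue (72.3 to 80.9), 64.7% with ΔZF1 (58.1 to 70.7) and 58.7% without UV. Over all sites in protein-coding genes the shares were 61.5%, 63.0% and 54.5% in ESCs and 68.9%, 55.5% and 52.5% in NPCs. Per kb, exons held 5.46 times the sites of introns in ESC WT, 11.9 times in NPC WT, and between 5.09 and 6.56 times in the other 4 lists. NPC WT therefore stood apart in its exon share.

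In the WT lists the NPC to ESC ratio was lower in introns than in exons. From ESC WT to NPC WT intron sites of the 8 genes fell from 314 to 86, a ratio of 0.274 (0.216 to 0.347), whereas exon sites went from 479 to 286, a ratio of 0.597 (0.516 to 0.691). Over all coding genes the ratios were 0.433 in introns and 0.60 in exons. In the ΔZF1 lists the NPC over ESC ratio was 0.579 in introns (0.438 to 0.766) and 0.638 in exons (0.517 to 0.788), where all coding genes gave 0.849 and 0.62. In noXL it was 0.409 in introns and 0.403 in exons, where all coding genes gave 0.706 and 0.651. The 8 genes thus lay below all genes in introns in each of the 3 comparisons, and without UV they did so in exons as well. Intron sites of the 8 genes were nearly as many in NPC ΔZF1 (77) as in NPC WT (86), a ratio of 0.895 (0.659 to 1.22), against 0.493 (0.403 to 0.603) in exons. All coding genes had the same pattern, with 0.952 in introns and 0.535 in exons. In ESCs the ΔZF1 over WT ratios were 0.424 in introns and 0.461 in exons, beside 0.485 and 0.518 over all coding genes.

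Mcm6 shows the intron change most plainly. It had 51 intron sites in ESC WT, all of them in introns 1 to 11 (73.4% of its intron length), and 7 in NPC WT. Its exon share rose from 58.9% (50.1 to 67.1) to 85.1% (72.3 to 92.6). From ESCs to NPCs its intron sites also fell from 23 to 8 with ΔZF1 and from 21 to 6 without UV. In the WT lists Mcm3 went from 15 intron sites to 2, and Mcm4 from 7 to 1. With ΔZF1 Mcm3 went from 7 to 1 but Mcm4 from 4 to 7. Without UV Mcm3 went from 10 to 3, and Mcm4 had 1 in both cell types. Mcm4 was the most exonic gene in both WT lists, with exon shares of 90.5% (ESCs) and 98.0% (NPCs). Its shares were similarly high without UV, at 95.2% of 21 sites in ESCs and 92.3% of 13 in NPCs. With ΔZF1 they were 84.6% and 70.8%. In NPC WT, Mcm3 and Mcm4 thus had nearly all their sites in exons, and Mcm6 most of them.

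Mcm5 had the reverse makeup, with 117 of 184 ESC WT sites in introns and an exon share of 36.4% (29.8 to 43.6). Introns 4 to 9, which are 61.8% of its intron length, held 86 of these, and with ΔZF1 and without UV they held 46 and 28 sites in ESCs. The NPC lists had 25 (WT), 20 (ΔZF1) and 18 sites (noXL) there. Introns 14 to 16 held 25, 8 and 5 in ESCs and 13, 6 and 5 in NPCs. With WT rescue, introns 4 to 9 thus held 73.5% (ESCs) and 64.1% (NPCs) of the Mcm5 intron sites, the latter close to their share of the length. Introns 1 to 3 held no site in ESC WT and are 2.43% of the intron length. The intron sites were also present without UV: 39 of 61 Mcm5 sites in ESC noXL and 26 of 34 in NPC noXL were intronic. Introns thus held most Mcm5 sites in every list except NPC WT, where 43 of 82 sites were in exons, and in the WT lists its exon density lay within the range of the other ring subunits. In NPC ΔZF1 its exon density was 2.89 sites per kb, below the 4.74 to 7.92 of those subunits.

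In Pcna, 32 of 59 ESC WT sites were intronic, 11 of them in intron 1 and 20 in intron 4. Intron 1 held 1 site with ΔZF1 and 0 without UV in ESCs, and 2, 0 and 0 in the NPC lists. Intron 4 held 5 and 9 sites with ΔZF1 and without UV in ESCs and 3, 4 and 1 in the NPC lists, so that it also carried sites without UV. In Mcm2, 19 of 26 intron sites in ESC WT lay in intron 2, which is 31.6% of its intron length. A processed pseudogene of Pcna on chromosome 19, Pcna-ps2, had 2 and 3 sites in the WT lists of ESCs and NPCs, and reads of the 2 loci may be split between them.

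**Figure D4:**
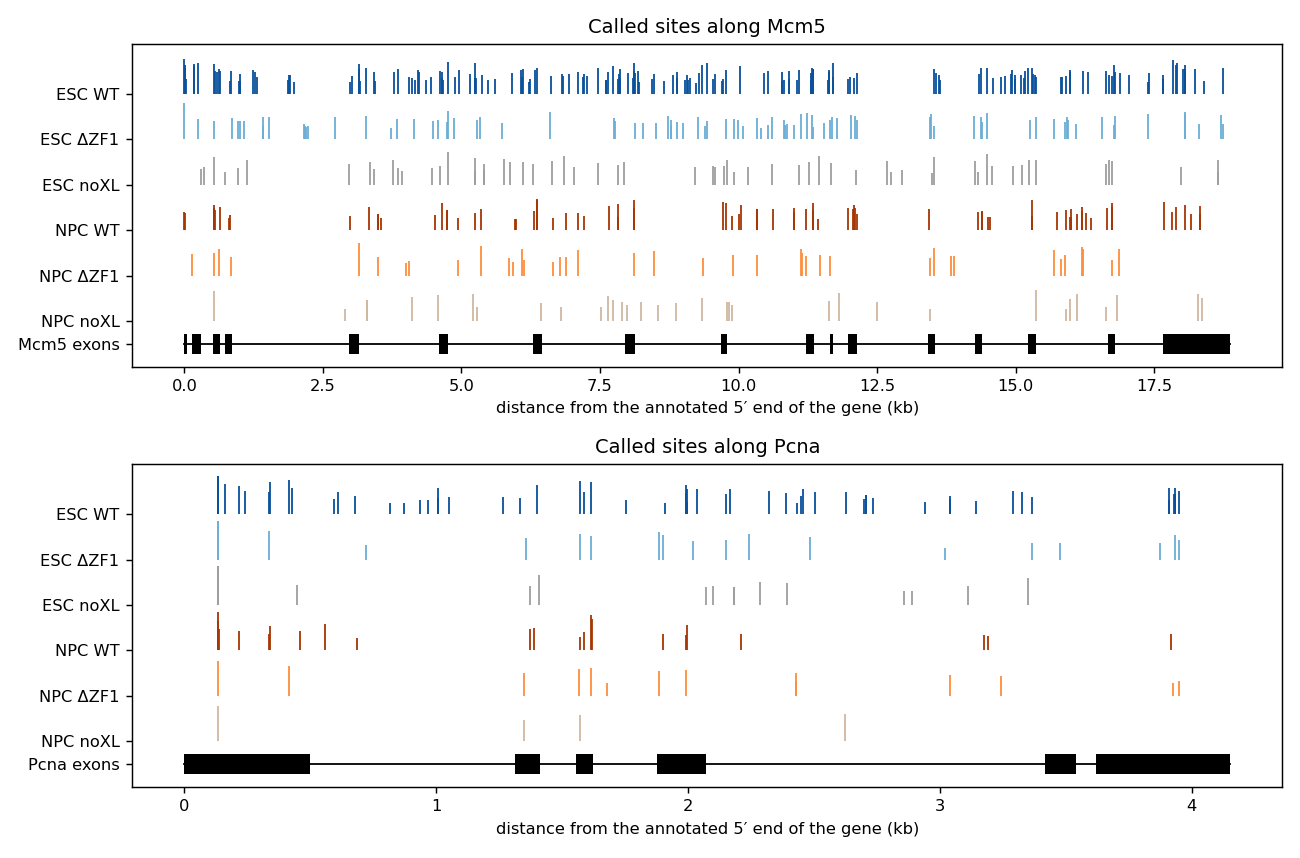
Called sites along Mcm5 and Pcna (horizontal axis, kb from the annotated 5′ end of the gene) in the 6 lists, with exons as black boxes and taller ticks for higher scores (log scale). In Mcm5 most intron sites of each list lie in introns 4 to 9, which are 61.8% of its intron length. In Pcna the position called in all 6 lists stands as a column of tall ticks in exon 1.

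Untranslated regions differed in base and score. In ESC WT 87.8% of the 49 sites in 3′ UTRs were at a uridine (75.8 to 94.3), 65.0% of the 377 in coding sequence (60.0 to 69.6), 60.2% of the 314 in introns (54.7 to 65.5) and 39.6% of the 53 in 5′ UTRs (27.6 to 53.1). The median PureCLIP score, which ranks how strongly a position stands out, was 7.11 in 5′ UTRs and 4.05, 3.95 and 2.13 in coding sequence, 3′ UTRs and introns. NPC WT gave 91.4% uridine in 3′ UTRs, 69.0% in coding sequence, 51.2% in introns and 44.0% in 5′ UTRs. The sites of 5′ UTRs were thus the poorest in uridine and the highest in score in ESC WT. Their median score was also the highest of the regions in ESC ΔZF1 (9.4, with 25.0% uridine) and in ESC noXL (8.6, with 36.4% uridine over 11 sites). Values of 5′ UTRs over all genes were not set beside these. Sites in 5′ UTRs were 53 in ESC WT and 11 in ESC noXL, a ratio of 4.82 (2.54 to 9.12).

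In ESC WT the highest-scoring site lay in a 5′ UTR in 7 of 8 genes. In Mcm2 it was the guanine shown above, at base 99 of the transcript, with scores of 38.3 (WT), 41.6 (ΔZF1) and 13 (noXL) in ESCs and 52.6 in NPC WT. In Mcm5 it was an adenine at base 2 of the transcript, with scores of 55.4 (WT) and 64.1 (ΔZF1) in ESCs, 2.36 in NPC WT and no call in noXL. In Mcm6 it was a cytosine at base 33 with 54.1, called in neither ESC ΔZF1 nor ESC noXL. In Mcm10 it was a uridine, the only one among the 7. In NPC WT the highest-scoring site was in a 5′ UTR in Mcm2 and Pcna only, and it was a uridine outside the 5′ UTR in Mcm3, Mcm5, Mcm6, Mcm7 and Mcm10. How often the highest-scoring site lies in a 5′ UTR over all genes was not counted, so these counts have no background beside them.

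The Pcna cytosine at base 134 of the transcript, also shown above, was the only position called in all 6 lists. Its scores were 143 (WT), 134 (ΔZF1) and 158 (noXL) in ESCs and 96.5, 49.1 and 53.3 in the same groups of NPCs, so that it was as high without UV in ESCs as with it. The uridine in exon 3 of Pcna was the only position called in all 4 UV lists and in neither noXL list, with scores of 31.0 (WT) and 6.59 (ΔZF1) in ESCs and 57.2 and 15.7 in NPCs. In both cell types its score was lower in ΔZF1 than in WT. Scores are not scaled to depth, and the ΔZF1 lists were shorter.

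Sites recurred at few exact positions. The 8 genes had 1874 distinct positions, of which 1687 were called in 1 list, 146 in 2, 31 in 3, 8 in 4, 1 in 5 and 1 in 6. Among them 24 were called in at least 3 UV lists and in no noXL list, 17 at a uridine and 23 in an exon. Mcm5 had 7 of these, Mcm7 6, Mcm3 4, Pcna 3, Mcm6 2, Mcm4 and Mcm10 1 each and Mcm2 none. The uridine in exon 8 of Mcm5 shown above scored 27.0 for WT rescue in ESCs and, in NPCs, 22.7 for WT and 6.25 for ΔZF1. The uridine in exon 8 of Mcm7 scored 5.62 (WT) and 3.03 (ΔZF1) in ESCs and 26.6 in NPC WT, where it was the top site of the gene.

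Nearby sites were shared more often. Of the NPC WT sites on the 8 genes, 37.6% had an ESC WT site within 5 nt on the same strand, against 7.39% when the positions were shifted by 500 or 1000 nt. For ESC ΔZF1 sites near ESC WT the share was 29.1% (6.5% shifted), and for NPC ΔZF1 sites near NPC WT it was 18.3% (3.33% shifted). NPC ΔZF1 sites had an ESC WT neighbour in 32.1% of cases (5.62% shifted), which was more than they had in the shorter NPC WT list. Sites of ESC WT near ESC noXL made up 8.07% (2.24% shifted), and of NPC WT near NPC noXL 9.14% (0.806% shifted). Shares of this kind grow with the length of the list searched.

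Mcm7 was the only gene of the 8 with other annotated genes on its strand, the hairpins Mir25, Mir93 and Mir106b in its intron 13. A primary miRNA is cut by Drosha at the base of the hairpin, so that the 3′ end of the 3p strand lies at one of the cuts. Intron 13 is 15.3% of the intron length of Mcm7 and held 12 of its 28 intron sites in ESC WT. With ΔZF1 and without UV it held 5 and 0 sites in ESCs, and NPCs had 2 (WT), 1 (ΔZF1) and 1 (noXL). The hairpins themselves held 7 of the ESC WT sites and all 5 of the ESC ΔZF1 sites.

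In ESC WT all 3 hairpins had a site exactly at the last base (base 22) of the 3p strand. The scores there were 2.55 in miR-25-3p, 9.68 in miR-93-3p, with a higher site (18.2) on the next base, and 21.5 in miR-106b-3p. In ESC ΔZF1 the miR-93-3p and miR-106b-3p positions were called again with scores of 3.00 and 23.6. The miR-106b-3p position was also called in NPC WT (17.4) and in NPC noXL (19.2), and thus not only after UV. The 3 last bases are adenine, guanine and cytosine, and none is a uridine. Over all 1005 annotated hairpins, last bases of 3p strands made up 12.2% of 147 (WT), 19.4% of 98 (ΔZF1) and 20.3% of 64 (noXL) hairpin sites in ESCs. The NPC shares were 17.2% of 116, 20.8% of 53 and 28.6% of 63, so sites at this place were found elsewhere and without UV too.

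**Figure D5:**
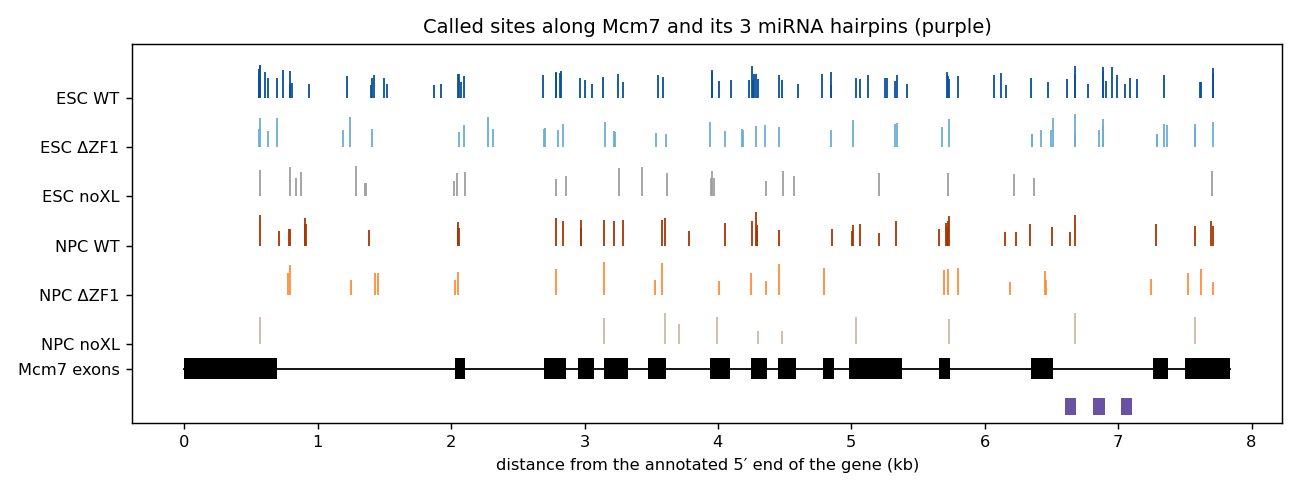
Called sites along Mcm7 (horizontal axis, kb from the annotated 5′ end) in the 6 lists, with exons in black, the 3 miRNA hairpins in purple and taller ticks for higher scores (log scale). Sites over the hairpins appear mainly in ESC WT and ESC ΔZF1, and 1 position is also marked in NPC WT and NPC noXL.

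The opposite strand carried few sites. Mcm7 had 5 (WT), 2 (ΔZF1) and 8 (noXL) antisense sites in ESCs and 0 in the NPC lists, in a region where Ap4m1 is annotated on the plus strand. Pcna had 2 antisense sites in ESC WT and 2 in NPC ΔZF1, and the other 6 genes had none. The sites were assigned by strand, so these do not enter the counts above.

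A further 51 replication genes in 4 groups were set beside the 8. The polymerase gene Pola1 held 280 sites with WT rescue in ESCs and 56 in NPCs, and Pole4 held 146 and 12. Of the genes for origin firing, Topbp1 held 219 and 104, and Ticrr, a factor needed for loading Cdc45, 206 and 18. The origin recognition subunits Orc1 and Orc2 went from 172 and 140 sites in ESCs to 59 and 33 in NPCs. At the fork, Rpa1, which coats single-stranded DNA, held 189 and 57, and Wdhd1 108 and 42. Pold4 had 0 sites in every list.

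In NPC WT over ESC WT, 49 of the 51 could be compared, with a median scaled log2 ratio of -0.28. Clspn alone passed the upper limit and 7 genes passed the lower, beside 11.5% and 10.5% of all genes, while the 8 helicase and clamp genes had none past a limit and a median of -0.21. In ESC ΔZF1 over ESC WT the median was -0.29 over 48 genes, with Mcm9, Rfc3, Rfc4 and Rpa1 past the lower limit (5.45% of all genes) and none past the upper (6.85%), against a median of -0.13 for the 8. In NPC ΔZF1 over NPC WT, 40 genes were compared, and Mtbp was past the upper and Pold2 past the lower limit, which 5.77% and 7.37% of all genes passed. The genes past a limit were named after their values were seen.

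In NPC WT over NPC noXL the 38 other genes that could be compared had a median of 0.17, with 25 above 0 (52.0% of all genes). Of the 38, 4 were past the upper limit (Orc2, Orc3, Pola2 and Fen1, beside 10.4% of all genes) and 2 past the lower (Mtbp and Timeless, beside 6.52%). In NPC noXL over ESC noXL the median was -0.39 over 31 genes, of which 22 were below 0 (47.0% of all genes were above it). Of the 31, 6 were past the lower limit and 0 past the upper (12.3% and 11.1% of all genes). The medians of the helicase and clamp genes were further from 0, at 0.66 over 8 genes and -0.96 over the 7 that could be compared, and the difference was not tested. Among 1842 genes with at least 200 sites over all lists, Yme1l1, Fam76b, Hspa9, Orc3 and Pom121 had profiles most like that of the 8 genes summed. Their correlations were 0.985, 0.985, 0.984, 0.982 and 0.960, taken on log2 sites divided by the genic sites of the list, over 6 lists that share libraries between all genes.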

How the data were processed

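The 23 libraries were grouped by their labels. The authors used Flexbar for trimming, STAR for alignment to mm10 and UMI-tools for deduplication, then pooled the libraries of a condition and called crosslinked nucleotides with PureCLIP, with bedtools among the tools named (versions are not given in the sources used here). The deposited value of each 1-nt site is the PureCLIP score, not scaled to depth. Merging removes the spread between libraries, and a longer list can come from depth or from crosslinking.

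The 8 genes and the lists of other replication genes were chosen with earlier results of these data known. Genes came from GENCODE M21 and positions are 1-based. Sites were counted on the strand of the gene, and exons were those of protein-coding transcripts, so that retained-intron transcripts counted as intron. Log2 ratios had a pseudocount of 1 per gene, were scaled by the number of genic sites per list, and had limits of 1 and -1. A gene was compared when its sites in the pair of lists summed to 20 or more. Sharing meant a site within 5 nt, and its background was the mean of shifts of 500 and 1000 nt in both directions. Bases were read from GRCm38 and miRNA sequences from RefSeq, where all 6 mature strands matched. Named genes were the 8, the 2 genes with most ESC WT sites in each of 4 replication groups, the 5 most similar profiles and 10 cell type markers. Replication genes past a limit were named beyond this rule where few passed. The calculations were tested on simulated data. Alternatives changed the scaling, pseudocount, score and site minimums, exon definition, bases used and sharing distance, removed sites near noXL sites and left out Mcm5. The tools were pysam 0.24.0, matplotlib 3.10.9, scipy 1.17.1 and pandas 2.3.3 with numpy 2.4.6 under Python 3.11.15.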

Additional observations from a re-analysis of the deposited data

Results flagged for a closer look

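In 3 of the 8 genes the scaled log2 ratio of ΔZF1 over WT had opposite signs in the cell types. Mcm6 was at -0.46 in ESCs and 0.09 in NPCs, Mcm7 at 0.18 and -0.27, and Mcm10 at -0.07 and 0.25. Each value rests on 1 list per group, and the intervals of all 6 values included 0 (the nearest, for Mcm6 in ESCs, ran from -0.97 to 0.01). The signs also depended on the sites used: with sites at or above the median score Mcm6 in NPCs was at -0.05, Mcm7 in ESCs at -0.13 and Mcm10 in ESCs at 0.01. The difference between the cell types was not tested.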

How the results depend on the processing

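No paired analysis was possible because sites were called on merged libraries, which also meant that leaving out a library was not an option. No gene past a limit changed sign under an alternative, but other ratios did, 4 of them for the summed genes and 49 for single genes (18 without scaling, 13 with the score minimum, 8 with exon sites, 7 with uridine sites, and 1 each with pseudocount 0.5, with scaling off chromosome 11 and without sites near noXL). Leaving out the scaling shifts every gene of a comparison by the same amount, so those 18 changes are not particular to these genes. The summed ESC WT over noXL ratio went from 0.05 to -0.04 with uridine sites alone and -0.10 with exon sites alone, and ESC ΔZF1 over noXL from -0.14 to 0.08 with the score minimum and 0.39 without scaling. Of the summed ratios, 56 alternative values stayed within the counting interval of the reported value and 11 did not. Without scaling, the summed log2 ratios were 1.56 and 1.76 for WT over noXL, 0.39 and 0.99 for ΔZF1 over noXL and -1.16 and -0.77 for ΔZF1 over WT (ESCs, then NPCs), and -1.09 in WT and -1.30 in noXL for NPC over ESC. The lists differ in length, which is what the scaling removes. With sites at or above the median score, ESC WT over noXL was 0.39, the exon shares of WT were 70.0% (ESCs) and 85.7% (NPCs), and the uridine share of NPC WT was 72.0%. With exon sites alone, NPC over ESC in WT was -0.01, so the reported -0.19 did not hold in exons. With uridine sites alone, NPC over ESC in noXL was -1.11. Counting exons of all transcripts, an alternative chosen after seeing the data, gave an exon share of 64.2% in ESC WT. The cause was not tested for any of these changes. Sharing at the same nucleotide and within 50 nt was 15.5% and 74.9% for ESC ΔZF1 near ESC WT, 7.34% and 52.8% for NPC ΔZF1 near NPC WT, 21.5% and 78.8% for NPC WT near ESC WT, 2.65% and 38.7% for ESC WT near ESC noXL, and 1.61% and 27.2% for NPC WT near NPC noXL, as the wider distance takes in more sites. For single genes 394 alternative values stayed within the interval and 43 did not, 33 of them without scaling. Those that crossed a limit with scaling are given beside their comparisons. With site minimums of 10 and 50, the number of the 8 genes past a limit was the same in 12 cases and differed in 4. Without Mcm5 the summed NPC WT over noXL ratio was 0.76. Counts of under 20 sites, as in Pcna and in most genes of NPC noXL, limit what the NPC ratios against noXL can resolve.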
